A study of Homo sapiens with 6 samples.

Results

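Heat shock chaperones of the cytosol and the mitochondrion were followed in NCI-H295R cells, a human adrenocortical carcinoma line, after lowering of TPD52. The 10 genes HSPA8, HSPA1A, HSPA1B, HSPH1, DNAJB1, HSP90AA1, HSP90AB1, HSPB1, HSPD1 and HSPE1 were taken by name from the 34869 genes of the deposited table, and all 10 passed the filter on low values. NCI-H295R cells transduced with lentivirus carrying an shRNA against TPD52 (shTPD52, 3 libraries) were compared with cells of the same line transduced with lentivirus carrying a non-targeting shRNA (shCtrl, 3 libraries). Both groups were grown in the same DMEM/F12 medium with serum and insulin-transferrin-selenium, and total RNA was sequenced as paired-end libraries. All libraries come from 1 cell line, and the labels name no second hairpin, no clone and no separate cultures, and the p-values below therefore cover only how these libraries varied, which may be technical. Levels are FPKM, read numbers scaled to gene length and to library size by the authors.

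HSP70 proteins bind exposed hydrophobic stretches of unfolded proteins in a cycle driven by ATP, in which J-domain proteins such as DNAJB1 deliver the substrate and start ATP hydrolysis, and HSP110 proteins such as HSPH1 release the nucleotide. HSP90 takes over late folding steps of client proteins that include kinases and steroid hormone receptors, small heat shock proteins such as HSPB1 hold unfolded proteins without using ATP, and HSPD1 with its lid HSPE1 forms the chaperonin chamber of the mitochondrial matrix. HSF1 is the main transcription factor that raises these genes under heat or proteotoxic stress, by binding heat shock elements. HSPA8 and HSP90AB1 are known as forms made without stress, HSPA1A, HSPA1B and HSP90AA1 as the stress-inducible forms.

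Library depth, worked back from the deposited FPKM, was 29544341 to 38396624 reads in shTPD52 and 30582681 to 36885546 reads in shCtrl. TPD52, the hairpin's target, was at 0.630, 0.635 and 0.655 FPKM in shTPD52 replicates 1, 2 and 3, against 1.42, 1.18 and 1.29 FPKM in shCtrl replicates 1, 2 and 3, a log2 fold change of -0.65 (SE 0.14; limma with Benjamini-Hochberg adjustment gave an adjusted p of 0.0218). TPD52 passed in 10 of 18 alternatives (log2 fold change -1.01 to -0.48, highest limma adjusted p = 0.0996), and its call ended without any library other than shTPD52 replicate 2, with no filter, with a filter of 5 FPKM and after correction for gene length and GC content. The shTPD52 replicate 2 library stood apart: on the first principal component, with 61% of the variance, it lay at 0.29, against 27.3 and 35.3 for shTPD52 replicates 1 and 3 and -24.1 to -16.4 for shCtrl. Reads of mitochondrially encoded genes made up 19.6% to 24.3% of the shTPD52 libraries and 17.5% to 18.5% of the shCtrl libraries. When FPKM were rescaled to reads outside these genes, a setting chosen after seeing the data, HSPA8, DNAJB1, HSP90AA1 and HSPE1 still passed and HSP90AB1 passed as well (5 of 10). Adrenocortical markers were present in both groups, with STAR, the mitochondrial cholesterol carrier, at 124 to 154 FPKM and NR5A1, the adrenal transcription factor, at 69.2 to 78.2 FPKM over the 6 libraries. Of the 10 adrenocortical markers, 4 rose and 1 fell, beside 5.63% higher and 12.7% lower over all 12782 genes tested. HSD3B2 rose 3.67-fold, MC2R 3.54-fold, FDX1 1.34-fold and CYP21A2 1.28-fold in mean FPKM, and NR0B1, a repressor of steroidogenic genes, fell to 0.612 times the shCtrl mean. Their part in the chaperone results was not tested. Of 18 listed markers of chromaffin cells, fibroblasts and endothelium, 15 were in the table, 0 passed the filter, and none exceeded 1.13 FPKM in any library. Summed chromaffin markers ran from 0.568 to 1.23 FPKM in shTPD52 and from 0.306 to 0.586 FPKM in shCtrl, and fibroblast markers from 0.732 to 0.824 FPKM in shTPD52 and from 0.979 to 1.28 FPKM in shCtrl. Endothelial sums were 0.287 to 0.461 FPKM in shTPD52 and 0.295 to 0.457 FPKM in shCtrl. In bulk RNA, fewer cells making a transcript and less of it per cell cannot be told apart.

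With the TPD52 hairpin, 4 of the 10 chaperone genes rose and none fell. HSPA8, the constitutive HSP70, rose 1.5-fold in mean FPKM, and its J-domain partner DNAJB1 rose 1.48-fold. HSPE1, the mitochondrial co-chaperonin, rose 1.5-fold, with the limits on its reads given below, and HSP90AA1, the inducible cytosolic HSP90, rose 1.26-fold. The stress-inducible HSP70 pair HSPA1A and HSPA1B, the HSP110 protein HSPH1, HSP90AB1, HSPB1 and HSPD1 did not pass the test. Across all 12782 genes tested, 18.3% were called, 5.63% higher and 12.7% lower in shTPD52, so the 4 of 10 called higher compare with a background of 5.63%. The median log2 fold change of the 10 genes was 0.29, against -0.11 over all genes tested. All 4 calls ended when shCtrl replicate 3 was left out (0 of 10 called). Leaving out shTPD52 replicate 1 or shCtrl replicate 1 left 1, shCtrl replicate 2 left 2, shTPD52 replicate 3 left 3 and shTPD52 replicate 2 left 6. Without shCtrl replicate 3, all-gene calls also dropped to 87.

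**Figure D1:**
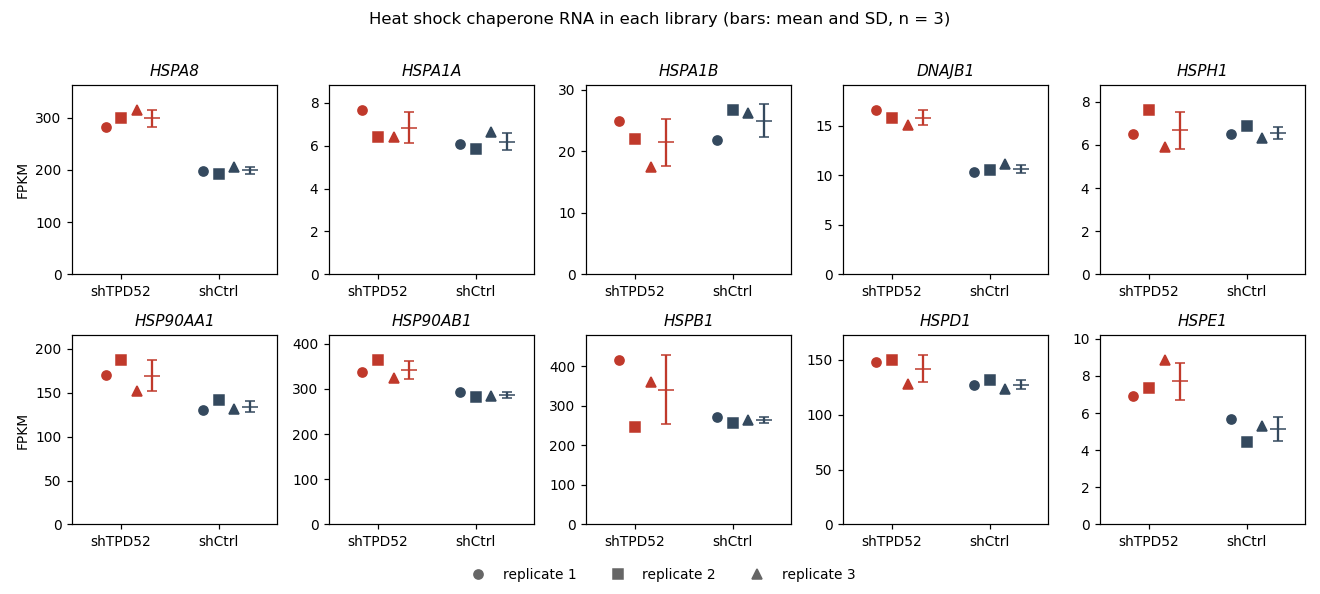
FPKM of each of the 10 chaperone genes (y axes from 0, each panel with its own range) in the 3 shTPD52 and 3 shCtrl libraries, with symbols for replicate numbers and bars for the mean and SD. All shTPD52 libraries lie above all shCtrl libraries for HSPA8, DNAJB1, HSP90AA1, HSP90AB1 and HSPE1, and the groups overlap for the other 5 genes.

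The 10 genes fell into a high and a low tier. Over the 6 libraries HSP90AB1 averaged 314 FPKM, HSPB1 303 FPKM, HSPA8 249 FPKM, HSP90AA1 152 FPKM and HSPD1 134 FPKM, all within the 1.6% of tested genes with the highest levels. HSPA1B averaged 23.2 FPKM and DNAJB1 13.2 FPKM. HSPH1 (6.62 FPKM), HSPA1A (6.51 FPKM) and HSPE1 (6.42 FPKM) stood near the middle of all tested genes, at ranks 5388, 5454 and 5492 of 12782. Within shTPD52, HSP90AB1 (341 ± 20.1 FPKM) and HSPB1 (341 ± 87.0 FPKM) did not differ beyond their spread (SD, n = 3 each), and HSPA8 (299 ± 16.5 FPKM) lay within the HSPB1 range. Within shCtrl the order at the top was HSP90AB1 (287 ± 6.32 FPKM), HSPB1 (265 ± 7.64 FPKM) and HSPA8 (199 ± 6.43 FPKM), with no overlap between libraries of neighbouring genes (SD, n = 3 each). In shTPD52 the ranges of HSPE1 (6.93 to 8.86 FPKM), HSPA1A (6.41 to 7.67 FPKM) and HSPH1 (5.93 to 7.62 FPKM) overlapped. In shCtrl, HSPE1 (4.45 to 5.68 FPKM) lay below HSPA1A (5.85 to 6.63 FPKM), which overlapped HSPH1 (6.32 to 6.86 FPKM). Levels between genes rest on the length behind each FPKM: for HSPD1 and DNAJB1 the lengths that gave whole reads were 7629 and 8188 bases, against 4245 and 3672 bases of exon in GENCODE release 29, so their FPKM are lower than that annotation would give.

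Heat shock elements upstream of the start sites differ among the genes and are shown because they are the letters HSF1 is known to read. RefSeq windows of 250 bases before to 50 after each annotated start (GRCh38.p14, all 10 genes matched) were searched on both strands for 3 alternating units (GAANNTTCNNGAA or TTCNNGAANNTTC) and for 2 units (GAANNTTC or TTCNNGAA, which also lie within every match to 3 units). The lines below are not all of the matches. Matches to 2 units that are not printed lie 182 bases upstream for HSPB1, 68 for HSP90AA1 and 47 for DNAJB1, and just after the DNAJB1 start at 14517937. Each line below runs 5′ to 3′ along the gene's strand, with the matched letters in capitals. Distances are to the annotated start whose window held the match (HSP90AA1, HSP90AB1, HSPD1 and DNAJB1 have several).
HSPA8, 230 bases upstream of its start, chr11:123062346-123062374, minus strand: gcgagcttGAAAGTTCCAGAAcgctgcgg
HSPA8, 55 bases upstream, chr11:123062171-123062199, minus strand: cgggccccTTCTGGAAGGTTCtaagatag
HSP90AA1, 88 bases upstream, chr14:102087112-102087140, minus strand: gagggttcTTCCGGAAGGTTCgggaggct
HSP90AB1, 165 bases upstream, chr6:44247770-44247798, plus strand: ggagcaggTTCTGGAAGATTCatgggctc
HSP90AB1, 112 bases upstream, chr6:44247823-44247851, plus strand: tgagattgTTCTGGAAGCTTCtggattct
HSPD1, 245 bases upstream of an alternative start at 197499840, chr2:197500062-197500090, minus strand: gcattTTCTGGAAAGTTCTGGAAccgagc
DNAJB1, 77 bases upstream, chr19:14518456-14518485, minus strand: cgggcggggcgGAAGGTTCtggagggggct
HSPA1A, 106 bases upstream, chr6:31815426-31815455, plus strand: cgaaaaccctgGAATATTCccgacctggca
HSPA1B, 105 bases upstream, chr6:31827622-31827651, plus strand: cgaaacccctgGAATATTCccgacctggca
The HSPD1 match lies downstream of the other HSPD1 start, at 197500274, which is the start beside HSPE1, and all 250 bases upstream of the alternative start are annotated as exon. The same holds for all 250 bases upstream of the HSPA8 start. In the matching windows of HSP90AA1 and HSP90AB1, 147 and 77 upstream bases are annotated as exon. The other annotated starts of HSP90AA1 and HSP90AB1 lie upstream of these matches, and their windows held no match to 2 or 3 units. The windows of 4 genes, HSPA8, HSP90AA1, HSP90AB1 and HSPD1, held at least 3 units, against 0.608% of the 27305 genes with a window (0.49% of 35116 windows). The HSPD1 capitals run over 18 bases and hold 4 alternating units, which are 2 overlapping matches to 3 units. The other printed matches to 3 units are 13 bases long. Windows with at least 2 units were found for 8 of the 10 genes and for 16.2% of all genes (13.5% of windows), and HSPH1 and HSPE1 had none. Among the 4 genes with at least 3 units, HSPA8 and HSP90AA1 rose while HSP90AB1 and HSPD1 did not pass. DNAJB1 rose with 2 units and HSPE1 with no match in its window. The HSPD1 match, at 197500068 to 197500085, also lies upstream of the HSPE1 start, just before the HSPE1 window, which begins at 197500129. A match here is a description of letters, not a binding site, and no match says only that these letters are not in that window.

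The cytosolic HSP70 machine moved in part. HSPA8 (ENSG00000109971, GRCh38 chromosome 11, 123057489 to 123063230, minus strand) has 2 separate matches to 3 units, printed above, as HSP90AB1 does. It was at 282, 300 and 315 FPKM in shTPD52 replicates 1, 2 and 3, against 199, 193 and 206 FPKM in shCtrl replicates 1, 2 and 3. Every shTPD52 library was above every shCtrl library, and shTPD52 replicate 2, which stood apart on the first component, lay between the other shTPD52 libraries here. The log2 fold change was 0.58 (SE 0.076, 95% interval 0.41 to 0.76, Benjamini-Hochberg adjusted p = 0.00797 from limma), and it rests on 28626 to 58603 reads per library. The call ended only without shCtrl replicate 3 (0.61 on the log2 scale, with an adjusted p of 0.0568 in limma), among 18 alternatives.

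DNAJB1 (ENSG00000132002, chromosome 19, 14514770 to 14529770, minus strand), the J-domain protein that hands clients to HSP70, was at 16.6, 15.7 and 15.1 FPKM in shTPD52 and 10.3, 10.6 and 11.1 FPKM in shCtrl (replicates 1, 2 and 3). The groups did not overlap, and the gap between them was wider than the range within either group. DNAJB1 rose by a log2 fold change of 0.55 (SE 0.081, Benjamini-Hochberg adjusted p = 0.0109 from limma). The call ended without shTPD52 replicate 1, shCtrl replicate 1 or shCtrl replicate 3 (highest limma adjusted p = 0.0636). TECR, a fatty acid elongation enzyme on the opposite strand, overlaps the DNAJB1 span, and it was at 17.9, 15.5 and 20.6 FPKM in shTPD52 and 15.1, 13.0 and 13.5 FPKM in shCtrl. TECR did not pass (log2 fold change 0.36, limma adjusted p = 0.0666), and since the strand setting of the counting is not given in the sources used here, reads of the shared stretch cannot be told apart. The ratio of HSPA8 to DNAJB1 FPKM was 17.0, 19.0 and 20.9 in shTPD52 and 19.3, 18.3 and 18.6 in shCtrl, so the ranges of this ratio overlapped.

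HSPA1A and HSPA1B, the stress-inducible HSP70 genes on chromosome 6 with 12194 bases between their start sites, could not be separated with confidence. Their longest open reading frames of 1926 bases differ at 4 bases (99.8% identity), share a run of 1709 identical bases, and their 250 bases upstream are 93.6% identical, as the near-matching lines above show. HSPA1A (ENSG00000204389, 31815464 to 31817946, plus strand) was at 7.67, 6.41 and 6.42 FPKM in shTPD52 and 6.09, 5.85 and 6.63 FPKM in shCtrl. HSPA1B (ENSG00000204388, 31827735 to 31830255, plus strand) was at 24.9, 22.1 and 17.4 FPKM in shTPD52 and 21.8, 26.7 and 26.2 FPKM in shCtrl. The groups overlapped for both genes, with the highest HSPA1A value in shTPD52 replicate 1 and the lowest HSPA1B value in shTPD52 replicate 3. Summed, the pair gave 32.6, 28.5 and 23.8 FPKM in shTPD52 and 27.9, 32.6 and 32.9 FPKM in shCtrl, with a log2 fold change of -0.14 (SE 0.13, 95% interval -0.43 to 0.15, Benjamini-Hochberg adjusted p = 0.423 from limma). The sum did not pass under any of 18 alternatives (log2 fold change -0.25 to -0.022). Per length, HSPA8 exceeded HSPA1B by 11.3, 13.6 and 18.1 times in shTPD52 and by 9.09, 7.22 and 7.85 times in shCtrl, and these ranges did not overlap.

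HSPH1 (ENSG00000120694, chromosome 13, 31134974 to 31162388, minus strand), the cytosolic HSP110 that exchanges nucleotide on HSP70, was at 6.51, 7.62 and 5.93 FPKM in shTPD52 and 6.50, 6.86 and 6.32 FPKM in shCtrl. The highest and the lowest of the 6 values were both shTPD52 libraries, so the groups overlapped fully. Its log2 fold change was 0.020 (SE 0.11, 95% interval -0.23 to 0.27, Benjamini-Hochberg adjusted p = 0.908 from limma). The ratio of HSPA8 to HSPH1 FPKM was 43.3, 39.3 and 53.1 in shTPD52 and 30.6, 28.1 and 32.6 in shCtrl, without overlap.

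Among the HSP90 genes, HSP90AA1 (ENSG00000080824, chromosome 14, 102080738 to 102139699, minus strand) was at 170, 187 and 151 FPKM in shTPD52 and 130, 141 and 131 FPKM in shCtrl. All shTPD52 libraries were higher, with the smallest gap between shTPD52 replicate 3 and shCtrl replicate 2. HSP90AA1 rose by a log2 fold change of 0.33 (SE 0.094, Benjamini-Hochberg adjusted p = 0.0460 from limma), close to the threshold of 0.05. It passed in 11 of 18 alternatives, and the call ended without shTPD52 replicate 1 or without any shCtrl library, with quantile normalization (log2 fold change 0.22, limma adjusted p = 0.222), without a filter and without the variance trend.

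HSP90AB1 (ENSG00000096384, chromosome 6, 44246166 to 44253888, plus strand), the constitutive form, was at 337, 363 and 324 FPKM in shTPD52 and 294, 281 and 285 FPKM in shCtrl. The groups did not overlap, but the change missed the threshold, with a log2 fold change of 0.25 (SE 0.076, 95% interval 0.075 to 0.43, Benjamini-Hochberg adjusted p = 0.0557 from limma), and its direction flips with quantile normalization (log2 fold change -0.0068). It passed in 6 of 18 alternatives. The ratio of HSP90AB1 to HSP90AA1 FPKM was 1.98, 1.94 and 2.14 in shTPD52 and 2.26, 1.99 and 2.17 in shCtrl, so the balance of the 2 forms overlapped between the groups. With HSP90AB1 included, 5 of the 10 chaperone genes had all shTPD52 libraries above all shCtrl libraries, against a background of 13.8% of tested genes. None of the 10 had them all below, against 28.3% of tested genes, and groups that did not overlap in either direction made up 42% of tested genes.

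**Figure D2:**
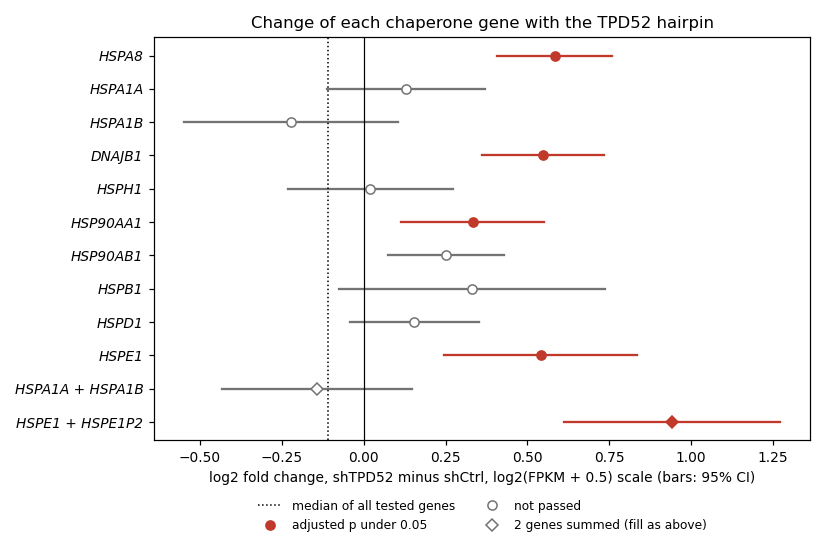
Log2 fold change of each chaperone gene, shTPD52 minus shCtrl on the log2(FPKM + 0.5) scale, with 95% intervals from limma. Filled red symbols passed a limma adjusted p of 0.05, diamonds are sums of 2 genes, and the dotted line is the median of all tested genes at -0.11.

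HSPB1 (ENSG00000106211, chromosome 7, 76302544 to 76304295, plus strand), the ATP-independent small heat shock protein, had the widest spread of the 10 genes. It was at 416, 246 and 362 FPKM in shTPD52 replicates 1, 2 and 3, against 272, 257 and 265 FPKM in shCtrl. The 3 shCtrl libraries were close together, shTPD52 replicates 1 and 3 lay above them and shTPD52 replicate 2 lay below them. The log2 fold change was 0.33 (SE 0.18, 95% interval -0.074 to 0.74, Benjamini-Hochberg adjusted p = 0.20 from limma). Without shTPD52 replicate 2, HSPB1 passed, with a log2 fold change of 0.55 (adjusted p = 0.00253 in limma), so a single library decides its call.

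In the mitochondrial chaperonin the 2 subunits differed in their calls. HSPD1 and HSPE1 are read from start sites on opposite strands of chromosome 2 with 104 bases between 197500274 (HSPD1) and 197500379 (HSPE1). HSPD1 (ENSG00000144381, 197486581 to 197516737, minus strand), the chamber subunit, was at 148, 150 and 128 FPKM in shTPD52 and 127, 131 and 123 FPKM in shCtrl. The value of shTPD52 replicate 3 fell within the shCtrl range, and HSPD1 did not pass (log2 fold change 0.16, SE 0.085, Benjamini-Hochberg adjusted p = 0.215 from limma). HSPE1 (ENSG00000115541, 197499994 to 197503457, plus strand), the lid subunit, was at 6.93, 7.34 and 8.86 FPKM in shTPD52 and 5.68, 4.45 and 5.29 FPKM in shCtrl. All shTPD52 libraries were higher, and HSPE1 rose by a log2 fold change of 0.54 (SE 0.13, Benjamini-Hochberg adjusted p = 0.0291 from limma), on 248 to 620 reads per library. The ratio of HSPD1 to HSPE1 FPKM was 21.4, 20.4 and 14.4 in shTPD52 and 22.3, 29.5 and 23.2 in shCtrl. Whether HSPE1 changed more than HSPD1 was not tested. The HSPE1 span lies wholly within the HSPD1 span, on the opposite strand. Since the strand setting of the counting is not given, reads of any shared stretch cannot be told apart, which limits both levels and their ratio.

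The low HSPE1 level has to be read beside its processed copies, of which the table lists 10. HSPE1P2 (ENSG00000258645, chromosome 14, 63601509 to 63601814, plus strand) is an intronless copy of 306 bases that differs from the HSPE1 transcript by 10 edits (96.7% identity), with 121 bases as the longest identical run. Of the 207 windows of 100 bases in HSPE1P2, 22 (10.6%) also occur unchanged in the HSPE1 transcript. Between the reading frames of HSPA1A and HSPA1B that share was 90.9%, so fewer stretches are shared here. The same 90 coding bases of both (positions 137 to 226 of the HSPE1 coding sequence) are printed below, with the 4 mismatches in capitals.
HSPE1: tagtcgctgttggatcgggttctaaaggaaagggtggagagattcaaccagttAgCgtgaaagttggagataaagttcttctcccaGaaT
HSPE1P2: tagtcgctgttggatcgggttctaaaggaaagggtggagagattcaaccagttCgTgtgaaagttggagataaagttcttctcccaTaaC
The copy was listed at 50.2, 51.1 and 75.0 FPKM in shTPD52 and 25.2, 20.8 and 20.1 FPKM in shCtrl, on 195 to 881 reads. Every shTPD52 library was above every shCtrl library, with shTPD52 replicate 3 the highest for HSPE1P2 as it was for HSPE1. HSPE1P2 rose by a log2 fold change of 1.38 (SE 0.16, Benjamini-Hochberg adjusted p = 0.00606 from limma) and passed in 18 of 18 alternatives. None of the other 9 HSPE1 copies in the table exceeded a mean of 0.644 FPKM. With the reads of both genes summed at the HSPE1 length, an alternative chosen after seeing the data, the level was 15.4, 15.9 and 21.4 FPKM in shTPD52 and 9.91, 7.95 and 8.67 FPKM in shCtrl, with a log2 fold change of 0.94 (SE 0.14, Benjamini-Hochberg adjusted p = 0.0111 from limma). How the authors' counting shared reads between HSPE1 and its copies is not given in the sources used here, so what each gene contributes to this rise cannot be told apart. The HSPE1 call ended without any library other than shTPD52 replicate 2 and without a filter (highest limma adjusted p = 0.106).

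MOB4, a subunit of the STRIPAK phosphatase complex, lies on the plus strand and overlaps the upstream part of the HSPD1 span. It was at 17.4, 16.6 and 15.5 FPKM in shTPD52 and 10.4, 11.1 and 9.04 FPKM in shCtrl. The groups did not overlap and MOB4 rose (log2 fold change 0.68, SE 0.10, Benjamini-Hochberg adjusted p = 0.0109 from limma). The transcript that reads through HSPE1 into MOB4 was not analysed here. Copies of HSPD1 and HSP90AA1 stayed far below the genes they copy. HSPD1P1 averaged 5.67 FPKM in shTPD52 and 4.61 FPKM in shCtrl. HSP90AA2P averaged 9.96 FPKM in shTPD52 and 8.71 FPKM in shCtrl, and neither copy passed.

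**Figure D3:**
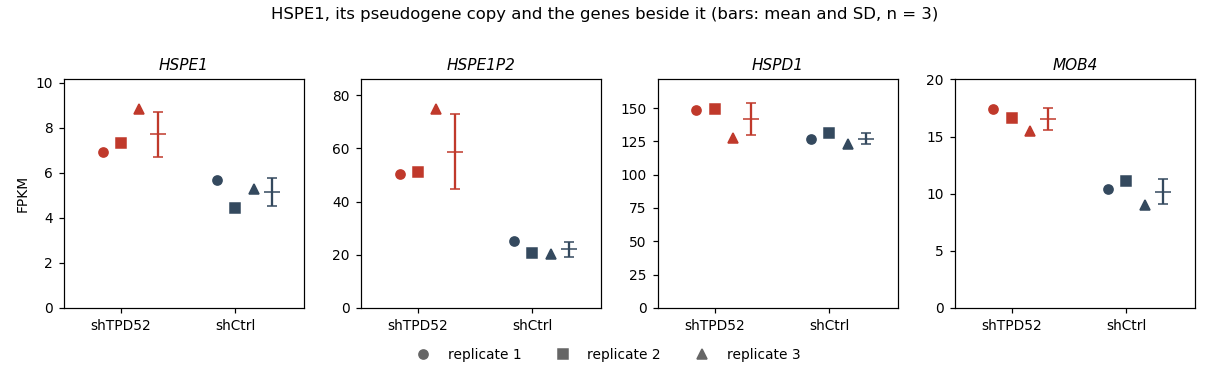
FPKM of HSPE1, its pseudogene copy HSPE1P2, and HSPD1 and MOB4 from the same chromosome 2 region, in the 3 shTPD52 and 3 shCtrl libraries, with bars for the mean and SD. The groups are separate for HSPE1, HSPE1P2 and MOB4 and overlap for HSPD1, where shTPD52 replicate 3 at 128 FPKM sits among the shCtrl libraries.

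The shTPD52 libraries did not rank alike across the 10 genes. Replicates 1 and 2 were each the highest shTPD52 library for 4 genes and replicate 3 for 2 genes, HSPA8 and HSPE1, while replicate 3 was the lowest for 6. Relative to the shCtrl mean, replicate 3 was 58.0% higher for HSPA8 and 72.3% higher for HSPE1, yet only 0.552% higher for HSPD1 it stood at -30.2% for HSPA1B and -9.66% for HSPH1. The summed FPKM of the 10 genes was 1416, 1305 and 1333 in shTPD52 and 1071, 1058 and 1066 in shCtrl, a sum carried by the 5 high-level genes.

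**Figure D4:**
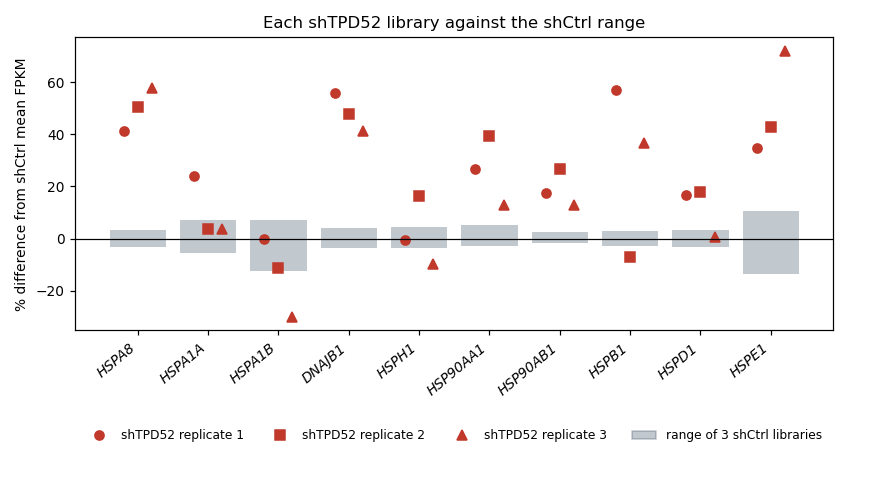
Percent difference of each shTPD52 library from the shCtrl mean FPKM, with the shCtrl range as a grey band. The 3 shTPD52 libraries lie above the band for 5 genes, and HSPB1 has shTPD52 replicates 1 and 3 above and replicate 2 below it.

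The wider chaperone network, 103 listed genes outside the 10 of which 88 were tested, had 9 genes called higher, 6 called lower and 73 not passed, with a median log2 fold change of 0.036. Higher calls were 10.2% of those tested and lower calls 6.82%, beside the 5.63% and 12.7% of all tested genes. The split depends on scaling: it was 18 higher and 1 lower with median-ratio scaling, 15 and 3 with quantile normalization, 16 and 3 when rescaled to reads outside mitochondrially encoded genes, and 25 and 4 when the dependence of each library on gene length and base composition was removed (the length and GC correction). Over all tested genes median-ratio scaling moved the median from -0.11 to 0.00054 and gave 1083 higher and 1038 lower calls, against 720 and 1621 without it.

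Of the small heat shock proteins, 4 relatives of HSPB1 were tested and 1 rose, beside 5.63% higher over all tested genes. HSPB7, a small heat shock protein best known from heart muscle, was at 66.3, 70.9 and 68.8 FPKM in shTPD52 and 42.8, 43.1 and 44.8 FPKM in shCtrl. The groups were tight and far apart, with shTPD52 replicate 2 the highest, unlike for HSPB1. HSPB7 rose by a log2 fold change of 0.65 (SE 0.070, Benjamini-Hochberg adjusted p = 0.00490 from limma) and passed in 18 of 18 alternatives. HSPB8 (8.80 FPKM in shTPD52 and 7.44 FPKM in shCtrl) and CRYAB, alpha-B crystallin (4.49 FPKM in shTPD52 and 3.66 FPKM in shCtrl), both named after their values were seen, did not overlap between groups and did not pass.

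Of 6 tested HSP70 and HSP110 relatives none passed, beside 18.3% called over all tested genes. HSPA4, an HSP110 relative, averaged 44.4 FPKM in shTPD52 and 41.3 FPKM in shCtrl. HSPA6, a strictly stress-induced HSP70, lay under the filter at 0.719, 0.710 and 0.597 FPKM in shTPD52 and 0.718, 0.389 and 0.530 FPKM in shCtrl, with overlapping groups. Of 18 J-domain proteins of the cytosol and nucleus, 2 rose and 3 fell (11.1% and 16.7%), beside 5.63% higher and 12.7% lower over all tested genes. DNAJA1, a major partner of HSPA8, rose to 80.7 ± 3.88 FPKM in shTPD52 against 61.1 ± 4.04 FPKM in shCtrl (SD, n = 3 each; log2 fold change 0.40, limma adjusted p = 0.020). DNAJC8, found in the nucleus, rose (log2 fold change 0.42, limma adjusted p = 0.0238), and DNAJC13, an endosomal J-domain protein, fell (log2 fold change -0.50, limma adjusted p = 0.0375). DNAJB5 and the clathrin-uncoating co-chaperone DNAJC6, named after their values were seen, also fell, with log2 fold changes of -0.33 and -0.68 (adjusted p = 0.0408 and 0.0472 in limma). None of the 7 tested genes in a list of HSP70 nucleotide exchange factors, which also holds the HSP70 cofactor ST13, passed. BAG3, which links HSP70 to HSPB8 and autophagy, averaged 28.1 FPKM in shTPD52 and 31.2 FPKM in shCtrl (log2 fold change -0.15, limma adjusted p = 0.255).

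HSP90 co-chaperones had 1 rise and 1 fall among 15 tested (6.67% each), beside 5.63% higher and 12.7% lower over all tested genes. PPID, the cyclophilin 40 of steroid receptor complexes, rose (log2 fold change 0.42, limma adjusted p = 0.0339), and UNC45A, a myosin-directed co-chaperone, fell (log2 fold change -0.42, limma adjusted p = 0.0231). STIP1, which joins HSP70 to HSP90, was at 102, 97.0 and 93.1 FPKM in shTPD52 and 82.5, 89.6 and 86.1 FPKM in shCtrl. The groups did not overlap, and STIP1 did not pass (log2 fold change 0.18, limma adjusted p = 0.121). In the cytosolic chaperonin TRiC and its feeder prefoldin, 3 of 14 rose and none fell, beside the same 5.63% and 12.7% over all tested genes. PFDN4 rose 1.74-fold (15.8 FPKM in shTPD52, 9.11 FPKM in shCtrl; limma adjusted p = 0.0166), PFDN6 1.28-fold and the TRiC subunit CCT3 1.19-fold. CCT3 passed in 9 of 18 alternatives, and with quantile normalization its log2 fold change was 0.14 (limma adjusted p = 0.131), against 0.25 without it.

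Of 14 other mitochondrial chaperones and proteases tested, 1 rose and 1 fell (7.14% each), beside 5.63% higher and 12.7% lower over all tested genes. HSCB, the J-domain protein of iron-sulfur cluster assembly, rose (log2 fold change 0.58, limma adjusted p = 0.0472). SPG7, a subunit of an inner membrane protease, fell (log2 fold change -0.33, limma adjusted p = 0.0484), a direction that the length and GC correction flips (to 0.21). HSPA9, the mitochondrial HSP70, averaged 54.3 FPKM in shTPD52 and 52.7 FPKM in shCtrl (log2 fold change 0.041, limma adjusted p = 0.717). Its exchange factor GRPEL1 averaged 16.0 FPKM in shTPD52 and 13.4 FPKM in shCtrl without overlap (log2 fold change 0.25, limma adjusted p = 0.0715). TRAP1, the mitochondrial HSP90, averaged 21.0 FPKM in shTPD52 and 22.1 FPKM in shCtrl (log2 fold change -0.078, limma adjusted p = 0.523), with a direction that median-ratio scaling and the length and GC correction both flip.

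The heat shock factors did not pass, with 0 of 4 tested genes of that list called, beside 18.3% over all tested genes. HSF1 was at 8.98, 7.14 and 6.81 FPKM in shTPD52 and 8.19, 8.60 and 7.79 FPKM in shCtrl. The groups overlapped, and its change (log2 -0.10, limma adjusted p = 0.538) turns positive with median-ratio scaling, quantile normalization and the length and GC correction. HSF2 averaged 14.8 FPKM in shTPD52 and 17.5 FPKM in shCtrl (log2 fold change -0.25, limma adjusted p = 0.164). RNA levels of a factor do not measure its activity. Of 19 other known HSF1 target genes tested, 2 rose (DNAJA1, above, and CACYBP, log2 fold change 0.31, limma adjusted p = 0.0396), P4HA2, a collagen hydroxylase subunit, fell (log2 fold change -0.52, limma adjusted p = 0.0310) and 16 did not pass, with a list median of 0.042. The rises were 10.5% and the fall 5.26% of those tested, beside 5.63% higher and 12.7% lower over all tested genes.

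Chaperones of the endoplasmic reticulum, the neighbouring folding compartment, were set beside them. Of 13 tested, 4 rose and none fell, beside 5.63% higher and 12.7% lower over all tested genes, and their median log2 fold change was 0.060. The 9 that did not pass went both ways. They ran from DNAJB9 (log2 fold change -0.43, limma adjusted p = 0.158) to SDF2L1 (0.33, limma adjusted p = 0.262), both named after their values were seen. HSP90B1, the HSP90 of that compartment, was at 62.0, 57.3 and 57.0 FPKM in shTPD52 and 45, 44.5 and 41.3 FPKM in shCtrl. These groups did not overlap, and HSP90B1 rose by a log2 fold change of 0.43 (SE 0.076, Benjamini-Hochberg adjusted p = 0.0151 from limma). CALR, a lectin chaperone, rose 1.27-fold and HERPUD1, a degradation factor, 1.21-fold, each passing in 10 of 18 alternatives. With quantile normalization the CALR log2 fold change was 0.020 (limma adjusted p = 0.847), against 0.34 without it. HSPA5, the HSP70 of that compartment, named after its values were seen, rose 1.2-fold, to 68.7 ± 1.97 FPKM in shTPD52 against 57.3 ± 2.42 FPKM in shCtrl (SD, n = 3 each; limma adjusted p = 0.0425).

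**Figure D5:**
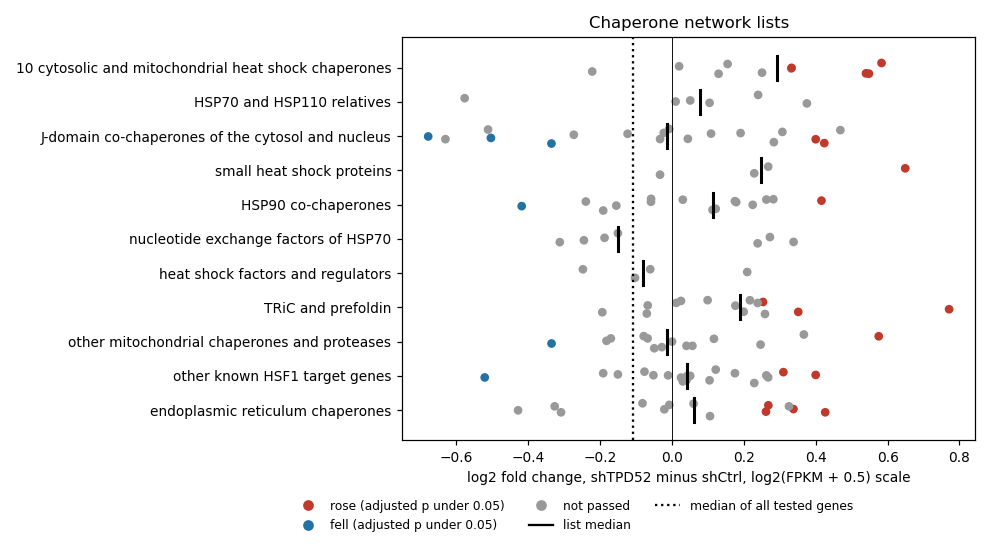
Log2 fold change of each tested gene, shTPD52 minus shCtrl on the log2(FPKM + 0.5) scale, by list, with genes that rose in red, genes that fell in blue, list medians as black bars and the median of all tested genes as a dotted line. The 10 heat shock chaperones have their median at 0.29, and most genes of the other lists did not pass.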

How the data were processed

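RNA was measured in 6 libraries, grouped by sample title as 3 shTPD52 and 3 shCtrl. The authors deposited FPKM for 34869 genes. HISAT2 2.2.1, featureCounts 2.0.3 and GRCh38 (hg38) are listed in the submitters' processing notes, with neither the annotation release nor the strand setting. Symbols and coordinates are from GENCODE release 29 on GRCh38, and promoter windows from RefSeq (GRCh38.p14). The 12782 genes whose mean reached 1 FPKM were tested with limma 3.58.1 in R 4.3.3, a moderated two-sided test with variance trend on log2(FPKM + 0.5), with Benjamini-Hochberg adjustment over all genes and a threshold of 0.05. Fold changes on that scale understate changes of genes with low values. TPD52, under the filter, was added to a fit of its own, as were the HSPA1A and HSPA1B sum and the HSPE1 and HSPE1P2 sum. Reads were worked back from whole-read steps of the FPKM for 99.3% of tested genes, within a tolerance of 0.02 reads. They give depth, the share of mitochondrially encoded reads, the HSPE1 and HSPE1P2 sum with its interval, and an alternative fit on reads (voom). No other interval here rests on them. The members, the lists and the naming rule (all members, TPD52, up to 3 called genes with the smallest p per list, HSF1, HSF2, HSPA6, HSPA9, HSPA4, BAG3, STIP1, TRAP1, GRPEL1, and the 3 highest overlapping genes or copies) were chosen with earlier results of these data known. Scripts were tested on simulated data. Alternatives were other pseudocounts, filters, scalings, variance models, the replicate block and leaving out each library. A marker list is not reported here.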

Additional observations from a re-analysis of the deposited data

How the results depend on the processing

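HSPA8 passed in 17 of 18 alternatives, DNAJB1 in 15 of 18, HSP90AA1 in 11 of 18 and HSPE1 in 13 of 19, each with its direction kept in all of them. TPD52 passed in 10 of 18. Among network and endoplasmic reticulum genes, HSPB7 passed in 18 of 18 alternatives, DNAJA1, PFDN4 and HSP90B1 in 14, PPID in 13, DNAJC8 and PFDN6 in 12, UNC45A, CACYBP, HERPUD1 and CALR in 10, CCT3 and P4HA2 in 9, and, of 17, DNAJC13 in 11, HSCB in 9 and SPG7 in 5. DNAJB5, DNAJC6 and HSPA5 were not recomputed singly. Without a filter, 531 of all genes, 2 of the 10 chaperones and 1 network gene were called, against 2341, 4 and 15 with it. The length and GC correction gave 29 network calls. Leaving out 1 library at a time gave 87 to 5825 calls over all genes, 0 to 6 over the chaperones and 1 to 40 over the network, and a fit of 5 libraries assumes that both groups vary alike. Voom on the recovered reads and the rescaling to reads outside mitochondrially encoded genes were chosen after seeing the data and called 5 of the 10 each. Signs reversed for HSF1 with median-ratio scaling (0.014), quantile normalization (0.024) and the length and GC correction (0.12), for TRAP1 with the first and last of these (0.042 and 0.11), for SPG7 with the last (0.21), for HSP90AB1 with quantile normalization (-0.0068), and for HSPH1 (0.020 with all libraries) without shTPD52 replicate 2 or shCtrl replicate 3, with leave-one-out values from -0.072 to 0.098. The cause was not tested. Over all genes the higher and lower calls were 1152 and 1188 with quantile normalization, 1318 and 1305 after the length and GC correction and 977 and 1216 when rescaled to reads outside mitochondrially encoded genes. Replicate numbers share only a number: deviations of same-numbered libraries correlated at 0.045, 0.25 and 0.022, and shTPD52 replicate 3 correlated best with shCtrl replicate 1 (0.28). With the replicate block 3064 genes, 4 chaperones and 16 network genes were called. With 3 libraries a group, small changes such as that of HSPD1 are not resolved.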
